A study of Mus musculus with 8 samples.

Results

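The solute carrier genes described here encode the membrane proteins that move glucose and other hexoses, myo-inositol and water-soluble vitamins, lactate and other monocarboxylates, folate and thiamine, carnitine and organic cations, fatty acids, nucleosides, choline and organic anions. They were taken by symbol, as every gene of the GENCODE M21 annotation whose symbol begins with Slc2a, Slc5a, Slc16a, Slc19a, Slc22a, Slc27a, Slc28a, Slc29a, Slc44a, Slc46a or Slc47a and a number, or with Slco and a number. The rule used no measured value and found 107 genes among the 35852 genes of the deposited count table. Among the 107 were Slc2a4rg-ps, a pseudogene of a regulator of a glucose carrier and not a carrier itself, and the pseudogenes Slc22a13b-ps and Slco6b1. The cells were bEnd3, an established line of mouse brain endothelial cells. Poly(A)-selected, directional RNA-seq libraries came from 4 samples given 5 µM corticosterone, the main glucocorticoid of rodents, for 24 h and from 4 samples kept in culture medium. Both groups were grown in DMEM with serum, no genetic change is named for either, and no vehicle is named for the medium group. The free-text treatment protocol of the medium samples also mentions corticosterone, so the groups here follow the titles and the treatment field.

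Brain endothelial cells carry out the exchange of nutrients between blood and brain. Because their junctions close the path between cells, glucose, lactate, vitamins, thyroid hormone and nucleosides have to pass through carriers in both the blood-facing and the brain-facing membrane. Slc2 and Slc16 proteins mostly let their substrates run down a gradient, alone or with a proton, Slc5 proteins use the sodium gradient, and Slco proteins exchange large organic anions such as prostaglandins, bile acids and iodothyronines. Facilitated nucleoside transport is the work of Slc29 proteins, and Slc28 proteins concentrate nucleosides with sodium. Glucocorticoids act through nuclear receptors that change transcription.

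In units of 1000000 estimated counts, the libraries held from 19.7 to 46.2 and averaged 30.2 ± 2.87 in corticosterone and 30.4 ± 11.2 in medium (SD, n = 4 each), a difference of -0.168 (two-sided exact permutation test, p = 0.971, smallest p possible 0.0286). Levels are given as counts per 1000000 (CPM), scaled between libraries by the trimmed mean of M-values (TMM). Differences were tested by edgeR's quasi-likelihood test of corticosterone against medium over the 13272 genes that passed a filter on low counts, with Benjamini-Hochberg adjustment over all of them, and "called" means an adjusted p under 0.05. The labels do not say that the replicates were separate cultures, so the p-values reflect only the spread among the samples at hand. In a bulk library, fewer cells of a kind and less RNA per cell cannot be told apart. Corticosterone replicates 1 and 2 stood apart from the other 6 libraries in the authors' effective transcript lengths, which equalled the transcript length plus 1 in 100% of transcripts of 1000 nt or more, against 0% in the others. They also lay farther from their own group, at a mean root-mean-square log2 distance of 0.714 and 0.700 over all tested genes, against 0.530 and 0.536 for corticosterone replicates 3 and 4 and 0.301 to 0.335 for the medium libraries. The own-group means of replicates 3 and 4 include their distances to replicates 1 and 2. Replicates 3 and 4 lay slightly closer to the medium libraries, at mean distances of 0.510 and 0.505. The tests of the carriers were therefore also run without corticosterone replicates 1 and 2. Partner genes and cell type markers are given from the fit of all 8 libraries only. All 10 endothelial markers examined, from Pecam1 to Emcn, were abundant, with summed levels of 8884 to 9173 CPM in corticosterone and 8068 to 8579 CPM in medium. Of these, 6 were called higher, among them Esam (fold 1.44) and Cldn5 (1.32), and 3 lower, among them Kdr (0.913), and their part in the carrier results was not tested.

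Of the 107 carrier genes, 42 passed the filter, and 19 of the 42 were called, 10 higher and 9 lower in corticosterone. That is 45.2% of the 42, with 23.8% higher and 21.4% lower, against 40.1% called among all genes tested, with 19.5% higher and 20.6% lower. The share called was thus near that of all genes. At least 2-fold calls were made for 6 of the 42 (14.3%), against 3.75% of all genes tested. Slc2a6, Slc2a2 and Slco2a1, which are among these 6, were scarce and stayed under 2 CPM in every library. Slc2a6 passed the filter only through corticosterone, where it was high, so its place in this count is favoured by the filter. The 4 corticosterone and 4 medium CPM values did not overlap for 20 of the 42 (47.6%), against 39.9% of all genes. Called carriers had a median absolute log2 fold change of 0.54, against 0.25 over all called genes, while the median signed log2 fold change was -0.01 over the 42 carriers and -0.0046 over all genes tested. Without corticosterone replicates 1 and 2, 44 carriers passed the filter and 21 were called, 11 higher and 10 lower (36.4% of all genes were called, 18.4% higher and 18% lower), and all 19 carriers called with 8 libraries were called again with the same sign.

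**Figure D1:**
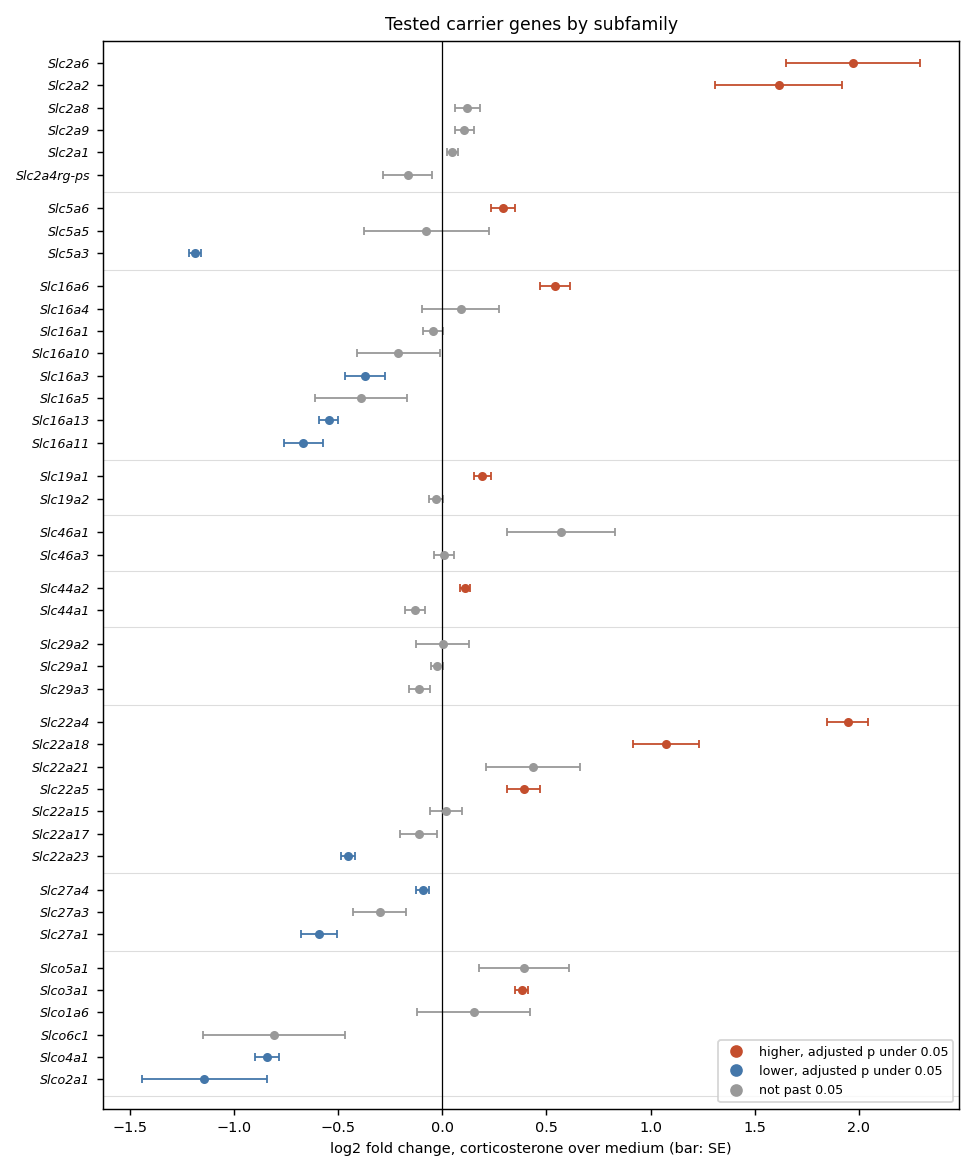
Log2 fold change of corticosterone over medium for the 42 carriers that passed the filter, grouped by subfamily, with the standard error as a bar (4 libraries per group). Points right of 0 are higher in corticosterone, and 10 carriers are called higher and 9 lower, with values from -1.19 for Slc5a3 to 1.97 for Slc2a6.

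**Figure D2:**
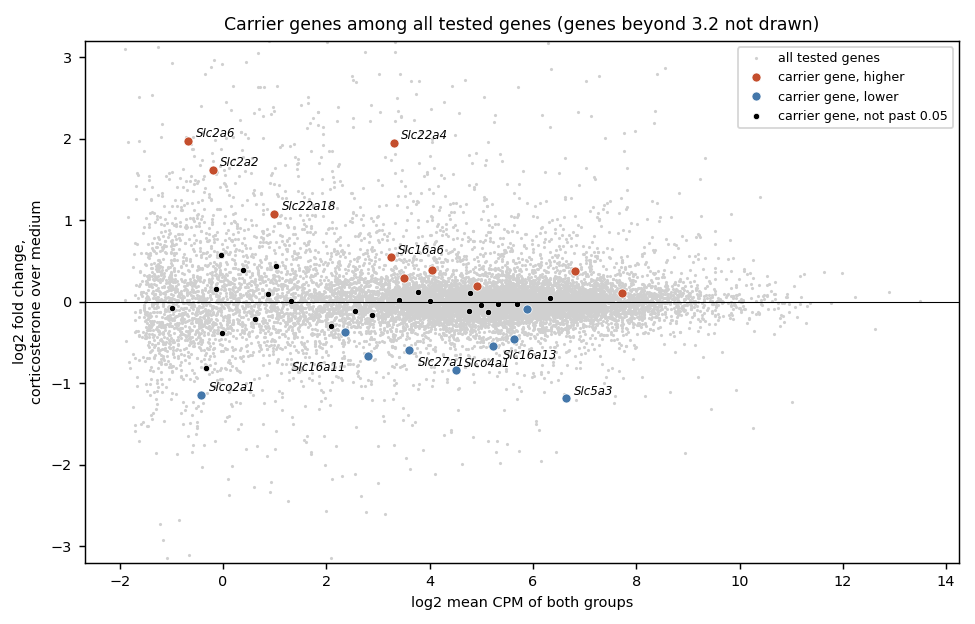
Log2 fold change of corticosterone over medium against log2 mean CPM for all 13272 genes tested (grey; genes beyond a log2 fold change of 3.2 are not drawn), with the 42 carriers in colour or black. The largest carrier rises, except that of Slc22a4, lie at low levels, and the largest fall among the 42, that of Slc5a3, lies at a high level.

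Among the hexose carriers, the genes with the largest rises were both scarce. Slc2a6 (chr2:27021363-27027998, minus strand, GRCm38), which encodes a carrier of intracellular membranes, was at 0.855, 1.22, 1.30 and 0.650 CPM in corticosterone and at 0.318, 0.294, 0.201 and 0.174 CPM in medium. Its groups did not overlap, and the rise was 3.92-fold (log2 1.97, SE 0.324, edgeR adjusted p = 0.000345). These levels rest on 121 counts over the 4 corticosterone libraries and 32 over the 4 medium libraries. Slc2a6 was too low in medium to pass the filter there and passed through the corticosterone libraries alone. The filter thus favours a rise of this gene, and its fold, p-value and lack of overlap are to be read as description. Slc2a2 (chr3:28697903-28731359, plus strand), the low-affinity glucose carrier of liver and pancreatic beta cells, was at 0.981, 1.88, 1.27 and 1.16 CPM in corticosterone and at 0.466, 0.442, 0.201 and 0.557 CPM in medium. Every corticosterone library was above every medium library, and the rise was 3.06-fold (log2 1.61, SE 0.306, edgeR adjusted p = 0.00102). Most of the Slc2a2 signal sat on Slc2a2-203, a transcript annotated as a retained intron, which took 62.3 ± 6.16% of its estimated counts in corticosterone and 65.7 ± 12.8% in medium (SD, n = 4 each).

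Slc2a1, the glucose carrier that defines the blood-brain barrier, held 63.3% of the per-length level of the Slc2 genes in medium and was not called. It was at 83.1, 81.6, 82.5 and 78.2 CPM in corticosterone and at 77.0, 80.2, 78.2 and 79.3 CPM in medium. The groups overlapped, and the fold was 1.03 (log2 0.05, SE 0.027, edgeR adjusted p = 0.17). Slc2a8, an intracellular hexose carrier, and Slc2a9, a urate carrier, averaged 14.2 and 28.6 CPM in corticosterone and 13.0 and 26.6 CPM in medium, and neither was called (edgeR adjusted p = 0.143 and 0.0828). Slc2a3, the high-affinity glucose carrier of neurons, was near absent, with 14 counts over the corticosterone libraries and 20 over the medium libraries. Of the 13 Slc2 genes, 7 failed the filter, Slc2a3 among them.

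Among the 42 carriers that passed the filter, Slc5a3 had the largest fall and the smallest adjusted p. It encodes the sodium-coupled carrier for myo-inositol, an osmolyte and a precursor of phosphoinositides. It was at 59.9, 63.9, 61.2 and 60.1 CPM in corticosterone and at 142, 137, 141 and 138 CPM in medium. The spread within each group was a small part of the gap between them, 61.3 ± 1.84 CPM in corticosterone against 139 ± 2.27 CPM in medium (SD, n = 4 each), and the fold was 0.44 (log2 -1.19, SE 0.027, edgeR adjusted p = 6.33e-12). Without corticosterone replicates 1 and 2 the log2 fold change was -1.20. Per length, Slc5a3 made up 59.5% of the Slc5 level in medium, and the sum of the 13 Slc5 genes was 23.0 ± 3.34 TPM (transcripts per 1000000, recomputed with a single effective length per transcript) in corticosterone replicates 3 and 4 (SD, n = 2) and 29.7 ± 0.545 TPM in medium (SD, n = 4). The same sum in CPM, in which the long Slc5a3 transcript weighs more, was 75.5 ± 1.67 in corticosterone and 151 ± 1.86 in medium (SD, n = 4 each).

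Slc5a3 lies at chr16:92058322-92087473 on the plus strand, inside the span of Mrps6 (chr16:92058270-92112227, plus strand), a subunit of the mitochondrial ribosome, and the annotated starts of both genes are 52 bases apart. Its promoter from RefSeq (GRCm38.p6, chr16:92058072-92058371, plus strand, 250 bases before to 50 after the start) is shown because the Mrps6 start falls within it. No letters are in capitals, since neither AGAACA, the core of a glucocorticoid receptor site, nor CACGTG, an E-box, was found on either strand.
Slc5a3: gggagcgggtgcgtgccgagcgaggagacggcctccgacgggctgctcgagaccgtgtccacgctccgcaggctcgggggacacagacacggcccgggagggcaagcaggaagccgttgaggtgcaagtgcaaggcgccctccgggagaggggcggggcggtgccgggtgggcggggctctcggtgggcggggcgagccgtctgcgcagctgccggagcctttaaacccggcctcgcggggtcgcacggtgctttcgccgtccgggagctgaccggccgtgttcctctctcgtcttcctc
Mrps6 was at 44.5, 41.6, 43.1 and 41.9 CPM in corticosterone and at 61.5, 61.9, 63.0 and 64.4 CPM in medium, again with no overlap. Its fall was smaller (fold 0.683, log2 -0.55, edgeR adjusted p = 2.68e-08). Of the Slc5a3 sequence, 98.7% of 31-base words occur in no other annotated gene. The same share was not measured for Mrps6. Exon 1 of Slc5a3-201 (chr16:92058322-92058480) lies wholly within exon 1 of Mrps6-201 (chr16:92058270-92058480), so reads from there could be counted for either gene. The part of such reads in the Mrps6 fall was not tested. Mrps6 was looked at after the Slc5a3 values were seen, because the genes overlap.

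Slc5a6, the sodium-coupled carrier for biotin and pantothenate, was at 12.9, 12.9, 12.1 and 12.1 CPM in corticosterone and at 9.66, 10.3, 10.1 and 10.7 CPM in medium. The groups did not overlap and the rise was 1.22-fold (log2 0.29, SE 0.056, edgeR adjusted p = 0.00116). Its value carries a limit, since 68.9% of its 31-base words are found in no other gene (Gm6157 shares the most) and it overlaps Atraid on the other strand, which was also called higher (log2 0.17, edgeR adjusted p = 0.00769). Slc5a5, the iodide carrier of the thyroid, passed the filter at 0.492 ± 0.150 CPM in corticosterone and 0.522 ± 0.0784 CPM in medium and was not called. The remaining 10 Slc5 genes fell below the filter. Of these, Slc5a9 had the most counts, 7, 6, 13 and 13 in corticosterone and 5, 8, 1 and 3 in medium, with overlapping CPM, and of the fits run it was called higher only in that without corticosterone replicates 1 and 2.

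The monocarboxylate carriers split, with Slc16a6 called higher and Slc16a3, Slc16a11 and Slc16a13 called lower among 8 that passed the filter. Slc16a13 (chr11:70216789-70221064, minus strand) and Slc16a11 (chr11:70212752-70216417, plus strand), 2 proton-coupled carriers best known from liver, sit tail to tail with a gap of 371 bases. Slc16a13, the most abundant Slc16 gene per length in medium, was at 31.1, 31.3, 30.9 and 29.2 CPM in corticosterone and at 46.9, 44.2, 41.0 and 46.6 CPM in medium (fold 0.685, log2 -0.54, SE 0.046, edgeR adjusted p = 1.15e-06). Slc16a11 was at 5.51, 4.84, 5.07 and 6.29 CPM in corticosterone and at 9.16, 8.98, 7.89 and 8.40 CPM in medium (fold 0.63, log2 -0.67, SE 0.094, edgeR adjusted p = 9.63e-05). Corticosterone lay below medium in every library of both genes. All of the 31-base words of both genes occur in no other gene.

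Slc16a1, the lactate carrier of brain endothelium and most other cells, was at 30.2, 29.7, 33.1 and 31.8 CPM in corticosterone and at 32.0, 32.9, 30.2 and 33.6 CPM in medium. These ranges overlapped, and the gene was not called (log2 -0.04, SE 0.048, edgeR adjusted p = 0.516), and the sign turned without corticosterone replicates 1 and 2 (log2 0.02). Slc16a6, which in zebrafish exports ketone bodies from the liver, was at 12.3, 10.5, 11.7 and 10.8 CPM in corticosterone and at 7.55, 8.32, 7.29 and 7.91 CPM in medium. Its groups did not overlap, and the rise was 1.46-fold (log2 0.54, SE 0.071, edgeR adjusted p = 5.63e-05). It overlaps Amz2 and Arsg on the other strand, shares 31-base words with Amz2 so that 77.6% are found in no other gene, and Arsg was also called higher (log2 0.48, edgeR adjusted p = 0.0148). Slc16a4, Slc16a5 and Slc16a10, the last a carrier of aromatic amino acids, averaged 0.852 to 1.88 CPM in corticosterone and 1.13 to 1.77 CPM in medium, with log2 fold changes of -0.39 to 0.09 that were not called.

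Slc16a3, the carrier by which glycolytic cells export lactate, was at 4.84, 4.73, 3.79 and 4.44 CPM in corticosterone and at 5.91, 5.85, 5.73 and 5.54 CPM in medium. The groups did not overlap, and the fall was modest (fold 0.773, log2 -0.37, SE 0.096, edgeR adjusted p = 0.00778). Its transcripts differed in make-up as well. Slc16a3-202 took 23.9%, 20.2%, 34.0% and 21.5% of the estimated counts of the gene in corticosterone, against 4.41% in medium replicate 1 and none in medium replicate 3 or 4, with a share of 0.000254% in medium replicate 2. The mean share was 24.9 ± 6.26% in corticosterone and 1.10 ± 2.20% in medium (SD, n = 4 each), and the groups did not overlap. These shares rest on 36.7, 25.8, 42.5 and 26.4 estimated counts in corticosterone and 12.3 in medium replicate 1, so counting error is large. Slc16a3-201 took 47.3 ± 15.5% in corticosterone and 65.8 ± 5.77% in medium. The transcript was found by scanning all 250 transcripts of the 42 carriers for shares that did not overlap and differed by more than 5 percentage points, which 2 met, so its difference is a description with no test. The other was Slc16a11-205, at 22.7 ± 5.33% in corticosterone and 15.4 ± 1.88% in medium.

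Slc16a3-202 starts at chr11:120949067 and lacks the exon at chr11:120954174-120954268 that Slc16a3-201, which starts at chr11:120948480, and Slc16a3-207 contain. The last exon of Slc16a3-202 also runs farther, to chr11:120959000, where that of Slc16a3-201 ends at chr11:120958775. Which of these differences the estimated counts of Slc16a3-202 rest on was not tested. Slc16a3-207 starts at chr11:120949053, and its first exon ends at chr11:120949150, as does that of Slc16a3-202. Its share was 17.0 ± 11.5% in corticosterone and 19.5 ± 4.30% in medium (SD, n = 4 each). The start used by the RefSeq promoter table is the same base as that of Slc16a3-202. This promoter (GRCm38.p6, chr11:120948817-120949116, plus strand) is printed for that reason, and it also holds the Slc16a3-207 start. Capitals mark AGAACA, 217 bases before the start.
Slc16a3: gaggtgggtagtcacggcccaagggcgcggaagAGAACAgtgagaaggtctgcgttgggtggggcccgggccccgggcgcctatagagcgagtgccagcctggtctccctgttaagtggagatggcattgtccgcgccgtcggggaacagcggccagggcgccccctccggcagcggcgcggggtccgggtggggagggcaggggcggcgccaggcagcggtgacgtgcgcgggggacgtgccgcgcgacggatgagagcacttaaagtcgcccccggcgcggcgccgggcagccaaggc
AGAACA was searched on both strands and is common, being in 18.97% of the 32851 promoters of this length and in 8 of the 49 promoters (16.3%) of carriers that passed the filter. Among called carriers the others with it were Slc22a18 and Slco4a1. The full response element, AGAACA followed after 3 bases by TGTTCT, was in 3 of all promoters (0.00913%) and in none of the 49, and each match to it is also a match to AGAACA. A match is only a string of letters and is no evidence of binding.

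**Figure D3:**
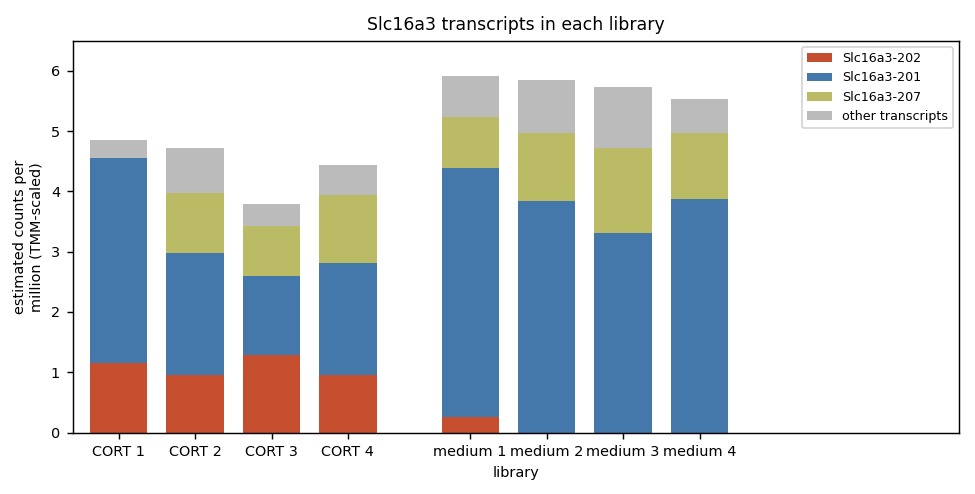
Estimated CPM (TMM-scaled) of Slc16a3 by transcript in each of the 4 corticosterone (CORT) and 4 medium libraries, stacked to the gene total. Slc16a3-202 is visible in every corticosterone library and in medium replicate 1, where it took 4.41% of the gene.

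The Slc22 genes, carriers of organic cations, carnitine and organic anions, held the largest rise of a well-counted carrier. Slc22a4, which carries the antioxidant ergothioneine, was at 16.8, 12.6, 16.8 and 16.4 CPM in corticosterone and at 4.05, 3.86, 4.42 and 3.94 CPM in medium. Every corticosterone library was far above every medium library, with corticosterone replicate 2 the lowest of its group. The group means were 15.7 ± 2.05 CPM in corticosterone and 4.07 ± 0.248 CPM in medium (SD, n = 4 each), a rise of 3.85-fold (log2 1.95, SE 0.097, edgeR adjusted p = 7.93e-09), and log2 was 2.04 without corticosterone replicates 1 and 2.

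Slc22a5, the high-affinity carnitine carrier, and Slc22a21, a related carnitine carrier of the mouse, lie near Slc22a4 on chromosome 11, all on the minus strand. Slc22a21 (chr11:53949965-53980332) is 2.79 kb from Slc22a4 (chr11:53983123-54028090) and 58.3 kb from Slc22a5 (chr11:53864542-53891660). Slc22a5 was at 18.8, 18.0, 20.7 and 17.8 CPM in corticosterone and at 14.4, 14.6, 12.2 and 16.1 CPM in medium, with no overlap and a rise of 1.31-fold (log2 0.39, SE 0.079, edgeR adjusted p = 0.0017). Slc22a21 was at 2.85, 1.77, 2.03 and 2.75 CPM in corticosterone and at 1.91, 1.10, 1.76 and 2.16 CPM in medium, which overlapped, and was not called (log2 0.44, SE 0.224, edgeR adjusted p = 0.146). The 3 genes share sequence: 62.2% of the 31-base words of Slc22a5, 69.2% of those of Slc22a21 and 93.1% of those of Slc22a4 occur in no other gene, so the split of reads between Slc22a5 and Slc22a21 is uncertain. The promoters of both called genes from RefSeq (GRCm38.p6, Slc22a4 at chr11:54028055-54028354 and Slc22a5 at chr11:53891654-53891953, minus strand) are shown together. The genes lie close by, with Slc22a21 between them, and rose by different amounts. Capitals mark CACGTG, the E-box, 228 bases before the Slc22a4 start, and Slc22a5 had neither motif.
Slc22a4: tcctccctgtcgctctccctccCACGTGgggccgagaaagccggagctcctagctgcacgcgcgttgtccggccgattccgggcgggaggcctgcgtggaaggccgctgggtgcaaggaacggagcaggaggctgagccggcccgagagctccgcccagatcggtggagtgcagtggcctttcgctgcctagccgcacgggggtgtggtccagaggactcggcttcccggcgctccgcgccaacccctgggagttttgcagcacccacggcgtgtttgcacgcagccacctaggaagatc
Slc22a5: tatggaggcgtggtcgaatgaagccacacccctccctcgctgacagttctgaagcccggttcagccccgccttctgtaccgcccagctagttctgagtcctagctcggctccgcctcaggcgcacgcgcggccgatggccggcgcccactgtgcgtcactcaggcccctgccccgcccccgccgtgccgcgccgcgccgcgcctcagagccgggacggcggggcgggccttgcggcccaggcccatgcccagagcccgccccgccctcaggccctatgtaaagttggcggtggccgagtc
CACGTG reads the same on both strands and was in 7.15% of all 32851 promoters and in 4 of the 49 (8.16%) of carriers that passed the filter, those of Slc22a4, Slc27a1, Slc16a1 and Slc29a1. Of these, Slc22a4 was called higher and Slc27a1 lower, and Slc16a1 and Slc29a1 were not called.

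Slc22a18 (chr7:143473736-143499334, plus strand), an imprinted gene for an organic cation carrier, was at 2.75, 2.44, 2.88 and 2.75 CPM in corticosterone and at 1.40, 1.47, 1.00 and 1.22 CPM in medium. The groups did not overlap and the rise was 2.11-fold (log2 1.07, SE 0.159, edgeR adjusted p = 0.000149). Slc22a23 (chr13:34179158-34345182, minus strand), whose substrate is not established, moved the other way, at 43.2, 41.6, 42.4 and 40.7 CPM in corticosterone and 56.1, 59.9, 58.5 and 55.5 CPM in medium (fold 0.731, log2 -0.45, SE 0.034, edgeR adjusted p = 4.07e-07). It had the highest per-length level of the Slc22 genes in medium, 38.5% of their sum. With these opposite moves, the summed CPM of the 26 Slc22 genes, in which long transcripts weigh more, lay between 91.1 and 102.6 in corticosterone and between 93.6 and 98.5 in medium and overlapped. Per length their sum was 50.2 ± 1.20 TPM in corticosterone replicates 3 and 4 (SD, n = 2), the corticosterone libraries with ordinary effective lengths, and 39.1 ± 1.66 TPM in medium (SD, n = 4), with no test. Slc22a15 and Slc22a17 averaged 10.7 and 5.65 CPM in corticosterone and 10.5 and 6.10 CPM in medium and were not called. Of the 26 Slc22 genes, 19 failed the filter and 9 had no count in any library, among them Slc22a6, the organic anion exchanger of the kidney. Slc22a8, its relative found in brain endothelium, had 6 counts in corticosterone and 10 in medium. Slc22a14 had 2, 1, 1 and 1 counts in corticosterone and 13, 6, 7 and 6 in medium, with no overlap in CPM (0.0303 to 0.0633 in corticosterone, 0.209 to 0.352 in medium). Of the fits run, it was called lower only in that with no filter, and it was named here after its values were seen.

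**Figure D4:**
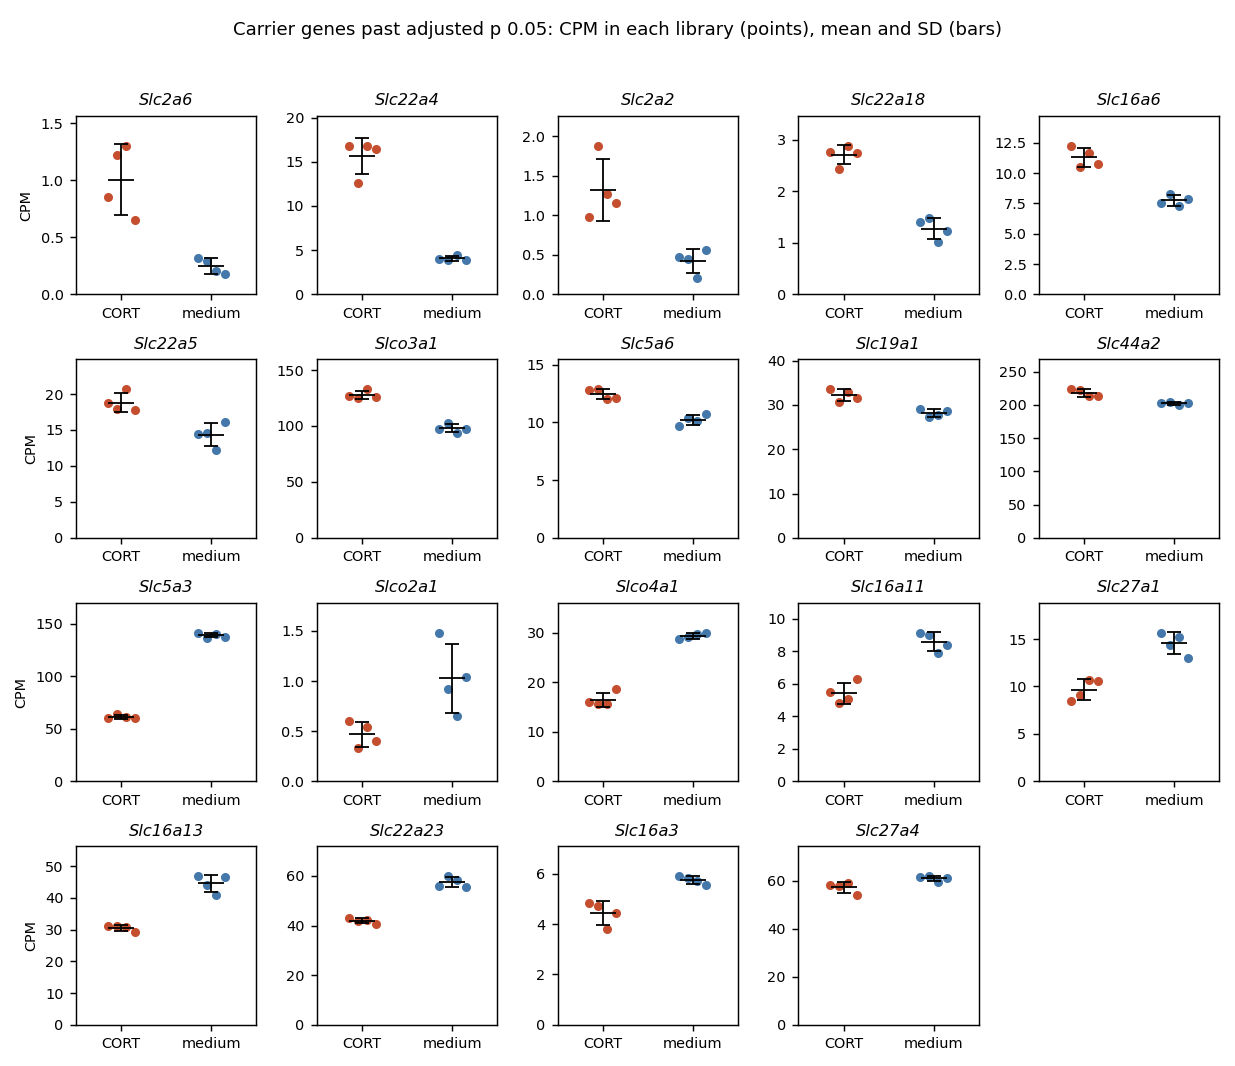
CPM of the 19 called carriers in each corticosterone (CORT) and medium library, with the mean and SD of 4 libraries as bars and each axis starting at 0. The 10 carriers that rose come first, each with every corticosterone point above every medium point, followed by the 9 that fell, each with every corticosterone point below every medium point.

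Fatty acid transport proteins of the Slc27 family, which also act as acyl-CoA synthetases, were lower or not called. Slc27a1 (chr8:71568882-71587302, plus strand) was at 8.45, 9.05, 10.6 and 10.5 CPM in corticosterone and at 15.7, 14.4, 15.2 and 13.0 CPM in medium, without overlap (fold 0.663, log2 -0.59, SE 0.086, edgeR adjusted p = 0.000122). Slc27a4, the most abundant of them, was at 58.1, 57.9, 58.9 and 54.0 CPM in corticosterone and at 61.5, 61.9, 59.6 and 61.3 CPM in medium. That fall was slight (fold 0.937, log2 -0.09, SE 0.032, edgeR adjusted p = 0.0326), and the call was lost when corticosterone replicate 4 or medium replicate 1, 2 or 4 was left out (edgeR adjusted p = 0.11, 0.0823, 0.089 and 0.0753). Slc27a3 averaged 3.82 ± 0.540 CPM in corticosterone and 4.68 ± 0.571 CPM in medium (log2 -0.30, edgeR adjusted p = 0.0825). The other 3 Slc27 genes failed the filter.

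Of the organic anion carriers, Slco3a1 was called higher, and Slco4a1 and Slco2a1 lower. Slco3a1 (chr7:74275419-74554780, minus strand), a carrier of prostaglandins and thyroxine with 57.8% of the per-length Slco level in medium, was at 127, 125, 133 and 126 CPM in corticosterone and at 97.6, 103, 93.7 and 97.5 CPM in medium. All 4 corticosterone libraries were above all 4 medium libraries, and the rise was 1.30-fold (log2 0.38, SE 0.032, edgeR adjusted p = 9.71e-07). Slco4a1 (chr2:180456245-180474867, plus strand), a carrier of thyroid hormone, was at 16.02, 15.5, 15.6 and 18.5 CPM in corticosterone and at 28.7, 29.2, 29.6 and 30.0 CPM in medium, so that even the highest corticosterone library, replicate 4, lay well under medium (fold 0.559, log2 -0.84, SE 0.058, edgeR adjusted p = 1.57e-07). Slco2a1 (chr9:102988712-103096002, plus strand), the prostaglandin carrier, was scarce at 0.601, 0.332, 0.546 and 0.397 CPM in corticosterone and at 1.48, 0.920, 0.653 and 1.05 CPM in medium. Those groups did not overlap, but the highest corticosterone value was close to the lowest medium value (fold 0.453, log2 -1.14, SE 0.300, edgeR adjusted p = 0.00883; 57 counts in corticosterone and 138 in medium).

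Slco5a1 averaged 1.48 CPM in corticosterone and 1.14 CPM in medium, and Slco6c1, known from testis, averaged 0.580 CPM in corticosterone and 1.01 CPM in medium. Neither was called (edgeR adjusted p = 0.17 and 0.0795), although the Slco6c1 groups did not overlap. Slco1a6, at 0.951 CPM in corticosterone and 0.866 CPM in medium, was counted almost wholly on Slco1a6-203, a processed transcript of 458 nt, and it shares sequence with Slco1a5. The 3 organic anion carriers that mark brain endothelium in the animal, Slco1a4, Slco1c1 and Slco2b1, were near absent in both groups, with 24, 8 and 8 counts over the corticosterone libraries and 24, 7 and 10 over the medium libraries.

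The folate and thiamine carriers changed little. Slc19a1, the reduced folate carrier, was at 33.6, 30.8, 33.0 and 31.5 CPM in corticosterone and at 29.1, 27.3, 27.6 and 28.7 CPM in medium, a rise of 1.14-fold without overlap (log2 0.19, SE 0.042, edgeR adjusted p = 0.00281). It overlaps Col18a1 on the other strand, which was called lower (log2 -0.29, edgeR adjusted p = 8.46e-07). Slc46a1, the proton-coupled folate carrier, was at 1.20, 0.923, 1.37 and 1.19 CPM in corticosterone and at 0.678, 0.810, 0.502 and 1.15 CPM in medium, and was not called (log2 0.57, SE 0.259, edgeR adjusted p = 0.102) unless medium replicate 4 was left out (log2 0.80, edgeR adjusted p = 0.0326). Slc46a3, a lysosomal carrier with 94.8% of the per-length Slc46 level in medium, averaged 16.2 CPM in corticosterone and 16.1 CPM in medium. Slc19a2, a thiamine carrier, was at 38.5, 39.7, 40.2 and 40.9 CPM in corticosterone and at 41.6, 39.9, 41.9 and 39.3 CPM in medium, overlapping and not called (log2 -0.03, SE 0.035, edgeR adjusted p = 0.543). Its relative Slc19a3 had 5 counts in corticosterone and 2 in medium.

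Choline and nucleoside carriers were changed slightly or not called. Slc44a2, a choline and ethanolamine carrier and the most abundant carrier per length, was at 224, 223, 213 and 214 CPM in corticosterone and at 202, 204, 199.9 and 203 CPM in medium. Although the groups did not overlap, the rise was 1.08-fold (log2 0.11, SE 0.025, edgeR adjusted p = 0.00332). Slc44a1, the main choline carrier of most cells, was at 32.1, 33.6, 36.5 and 31.5 CPM in corticosterone and at 35.4, 37.1, 35.8 and 38.0 CPM in medium. The ranges overlapped and it was not called (log2 -0.13, SE 0.049, edgeR adjusted p = 0.0539), but it was when corticosterone replicate 3 was left out (log2 -0.18, edgeR adjusted p = 0.00815). Slc29a1, the equilibrative nucleoside carrier that takes up adenosine, was at 53.5, 51.3, 51.9 and 49.4 CPM in corticosterone and at 52.0, 52.0, 52.7 and 52.9 CPM in medium, with overlap and no call (log2 -0.02, SE 0.030, edgeR adjusted p = 0.567). Slc29a2 and Slc29a3, the second of them lysosomal, averaged 2.50 and 26.1 CPM in corticosterone and 2.49 and 28.1 CPM in medium and were not called. None of the 3 Slc28 or the 2 Slc47 genes passed the filter. Slc28a2, the purine nucleoside carrier, had no count in corticosterone, which allows a level of up to 0.0251 CPM over the group (3 counts), and 2 counts in medium.

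In all, 65 of the 107 carriers failed the filter: 16 had no count in any of the 8 libraries and 49 had some, with group means of at most 0.327 CPM. Of the 42 that passed, 23 averaged over 10 CPM in a group and 11 stayed under 2 CPM in both. The levels between genes can be compared only per length, and for this the recomputed TPM was used. In medium, Slc44a2 led at 96.96 ± 4.73 TPM, followed by Slc2a1 at 54.1 ± 2.44 and Slc29a1 at 53.4 ± 1.92 TPM (SD, n = 4), and these last 2 did not differ beyond their spread. Slco3a1 came next at 36.2 ± 2.29 TPM, then Slc16a13 at 30.2 ± 0.385 and Slc19a1 at 28.7 ± 1.39 TPM, again within their spread, and Slc27a4 at 22.3 ± 0.746 TPM. From Slc19a2 at 18.3 TPM down to Slc46a3 at 14.1 TPM, no neighbours differed beyond their spread. Over all 107 genes the summed level per length was 547.3 ± 1.12 TPM in corticosterone replicates 3 and 4 (SD, n = 2) and 563.9 ± 20.5 TPM in medium (SD, n = 4), a difference within the spread of the medium libraries. In CPM the sum was 1036 ± 15.3 in corticosterone and 1099 ± 13.8 in medium (SD, n = 4 each), a smaller gap than that of Slc5a3 alone.

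**Figure D5:**
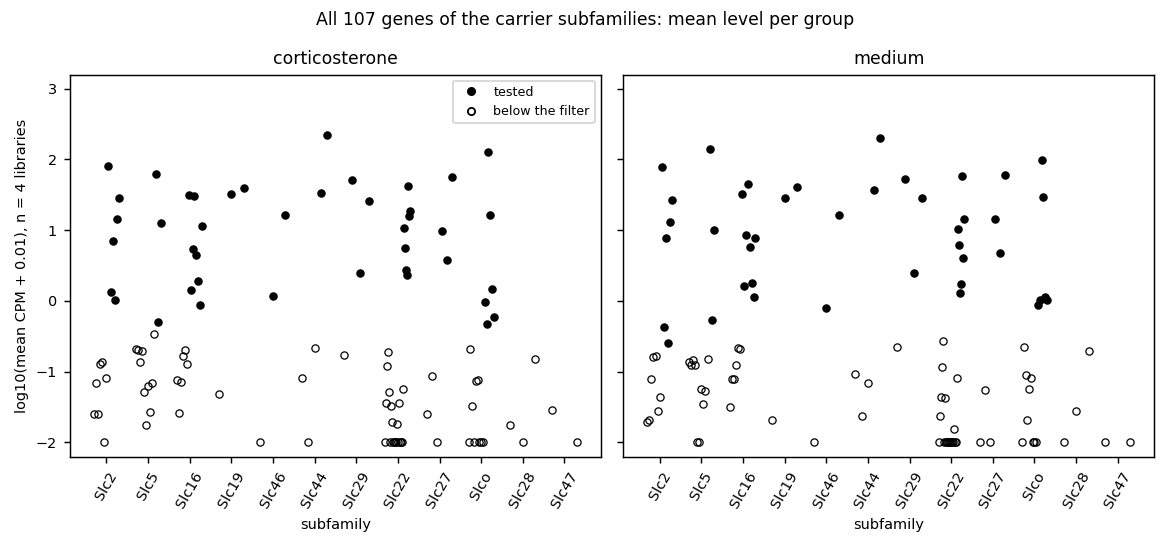
Mean level of each of the 107 carriers as log10(mean CPM + 0.01), by subfamily, in corticosterone (left) and medium (right), with the 42 that passed the filter filled and the 65 that failed it open. Genes without a count sit at -2, and the highest point of both panels is Slc44a2 of the Slc44 genes, which averaged 218 CPM in corticosterone and 202 CPM in medium.

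For the carriers, where estimated counts fell among transcripts differed more in corticosterone replicates 1 and 2 than the gene totals did. Of 36 carriers whose main transcript took at least 50% in medium, that transcript was under 50% for 9 in corticosterone replicate 1 and 6 in replicate 2, against 2 to 4 in each of the other 6 libraries. Slc44a2-201 took 84.0% of the gene in corticosterone replicate 1 and at most 0.689% elsewhere, and a transcript of Slc19a1 of 2309 nt took 82.0% there and at most 5.68% elsewhere. The gene totals of this library were the highest of its group but close to the next, at 224 CPM for Slc44a2 (223 in replicate 2) and 33.6 CPM for Slc19a1 (33.0 in replicate 3). The Slc16a3-202 share, by contrast, was present in all 4 corticosterone libraries, including replicates 3 and 4.

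Enzymes and partners that handle the same substrates are given by count, from lists chosen with earlier results of these data known, and are to be read beside the 19.5% of all genes tested called higher and 20.6% called lower. Of the glucose and lactate genes, 20 of 23 passed the filter, 6 were called higher and 3 lower. Pdk1, a pyruvate dehydrogenase kinase, was among those called higher, at 53.6 ± 2.82 CPM in corticosterone and 35.1 ± 1.70 CPM in medium (fold 1.53, edgeR adjusted p = 3.52e-07). Its relative Pdk3 was called lower (fold 0.862, edgeR adjusted p = 0.0038), and Pdk2 was not called (fold 0.962, edgeR adjusted p = 0.602). Bsg, the chaperone of Slc16a1 and Slc16a3, was at 380.4 CPM in corticosterone and 368 CPM in medium and was not called. Gapdh and Pgk1 were not called either, but their corticosterone values were uneven. They were 2502, 1260, 1388 and 1384 CPM for Gapdh and 1511, 699, 1468 and 1469 CPM for Pgk1. In medium, Gapdh ran from 1274 to 1353 CPM and Pgk1 from 1255 to 1308 CPM. The stray values were those of corticosterone replicate 1 for Gapdh and replicate 2 for Pgk1, the libraries whose effective lengths stood apart. Eno1, also not called, was at 115, 212, 164 and 159 CPM in corticosterone. The part of that difference in these gene totals was not tested. Of 15 nucleoside salvage genes, all passed, 5 were called higher and 4 lower. The 5 higher were Nt5e, the ectoenzyme that makes adenosine from AMP outside the cell, at 4.10 ± 0.316 CPM in corticosterone and 1.17 ± 0.311 CPM in medium (fold 3.42, edgeR adjusted p = 5.74e-06), Entpd1, Upp1, Aprt and Hprt (folds 1.45, 1.40, 1.22 and 1.06). The 4 lower were Ada, Adk, Tk1 and Dck (folds 0.672, 0.773, 0.787 and 0.819).

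Of 13 folate and thiamine genes 12 passed, with 1 called higher and 6 lower. Mtr, methionine synthase, was the gene called higher, at 59.1 ± 1.42 CPM in corticosterone and 50.6 ± 0.412 CPM in medium (fold 1.17, edgeR adjusted p = 3.06e-05). For choline 7 of 9 passed, with 2 higher and 2 lower, of which Cept1 had the largest rise (fold 1.32, edgeR adjusted p = 5.88e-06) and Pcyt1b the largest fall (fold 0.751, edgeR adjusted p = 0.0303). Of fatty acid and carnitine genes 11 of 13 passed, with 5 higher and 3 lower. Fabp4, a fatty acid chaperone of capillary endothelium, was at 22.9 ± 1.04 CPM in corticosterone and 5.45 ± 0.502 CPM in medium (fold 4.22, edgeR adjusted p = 1.86e-10), and Cd36, a fatty acid receptor, at 0.751 ± 0.169 CPM in corticosterone and 0.0890 ± 0.0411 CPM in medium (fold 8.69, edgeR adjusted p = 4.82e-05). Cd36 ran from 0.0424 to 0.139 CPM over the medium libraries, a few counts each, and passed the filter only through corticosterone. The filter thus favours its rise, and its fold and p-value are to be read as description. Thyroid hormone genes numbered 4 of 9 past the filter, of which Klf9, Hr and Thrb were called higher and none lower. Klf9, a transcription factor that answers to thyroid hormone and to glucocorticoids, was at 90.3 CPM in corticosterone and 50.3 CPM in medium (fold 1.80, edgeR adjusted p = 8.63e-10). Prostaglandin genes passed for 9 of 14, with 4 higher and 1 lower, among them the receptor Ptger4 at 6.47 ± 0.479 CPM in corticosterone and 1.78 ± 0.454 CPM in medium (fold 3.58, edgeR adjusted p = 1.86e-06) and the synthase Ptgs2 at 52.2 CPM in corticosterone and 32.1 CPM in medium (fold 1.63).

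Markers of other cell types moved with the groups in places, and their part in the carrier results was not tested. Of 5 fibroblast markers 2 passed the filter and both fell, and the list summed to 5.74 to 6.69 CPM in corticosterone and 19.9 to 21.9 CPM in medium, most of it Pdgfra (4.87 CPM in corticosterone, 18.4 CPM in medium), with Lum under 0.1 CPM in every library. Pericyte and smooth muscle markers passed for 5 of 10, with none higher and 2 lower, summing to 6.72 to 9.04 CPM in corticosterone and 8.99 to 10.0 CPM in medium, and Cspg4, Kcnj8 and Des were under 0.1 CPM throughout. Of 6 astrocyte markers 2 passed and Gja1, which endothelium also expresses, was called higher, with sums of 118 to 120.0 CPM in corticosterone and 102 to 107 CPM in medium, while Aqp4 had no count. Of 4 neuron markers Tubb3 passed, through its corticosterone libraries only, and was called higher. The sums were 0.759 to 1.20 CPM in corticosterone and 0.147 to 0.383 CPM in medium, and Syt1 had no count. Macrophage and microglia markers passed for 1 of 6, Cd68, which was not called, and the sums overlapped at 16.8 to 18.4 CPM in corticosterone and 16.9 to 18.9 CPM in medium, with Adgre1 under 0.1 CPM. The 4 choroid plexus markers failed the filter, at summed levels of 0.259 to 0.546 CPM in corticosterone and 0.184 to 0.418 CPM in medium, and Otx2 had no count.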

How the data were processed

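Deposited by the authors were estimated counts per gene, not normalized, and for each library kallisto tables with estimated counts, effective lengths and TPM, per the file headers. Per the submitters' processing notes the tools were bcl2fastq and kallisto 0.46.1, with the builds mm10 and GRCm38. Not given in the sources used here are the index, the strand setting and how transcripts were summed to genes. The TPM deposited by the authors divide by effective lengths that differ in corticosterone replicates 1 and 2, so the estimated counts were used for tests.

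Estimated counts were rounded and fitted with edgeR 4.0.16 (filterByExpr, TMM, quasi-likelihood test, Benjamini-Hochberg) in R 4.3.3, with group as the only term, and the code was tested on simulated data. Depth was 19.7 to 46.2 per library in units of 1000000 counts, which leaves genes near 0.1 CPM resting on a few counts. Alternatives were DESeq2 1.42.0, other scalings, no filter, a replicate block, summed transcript counts, limma 3.58.1 on log2(TPM + 1) and log2(TPM + 0.1), and libraries left out. No pairing of the samples by replicate number was seen, though the check could miss it. Sequence shared between genes was measured with 31-base words of the GENCODE M21 transcripts. RefSeq promoters were held for 87 of the 107 carriers.

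The carriers and lists were chosen with earlier results of these data known. Genes named with every value were called carriers with a mean of at least 1 CPM in a group, up to 10 rises and 10 falls, and 21 fixed by name, and other carriers are given by range and count. Some genes of these lists are not reported here.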

Additional observations from a re-analysis of the deposited data

Results flagged for a closer look

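Among 50 groups of 4 libraries, 2 held a library set apart from the other 3 by Dixon's test at the 95% level, and chance alone gives about 1 in 20. Slc22a4 in corticosterone replicate 2 was at 12.6 CPM, below the 16.4 to 16.8 CPM of the other corticosterone libraries (ratio 0.896). Slco4a1 in corticosterone replicate 4 was at 18.5 CPM, above the 15.5 to 16.02 CPM of the others (ratio 0.833). Both lay on the same side of all medium libraries as the rest of their group, and leaving out replicate 2 or 4 changed neither call.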

How the results depend on the processing

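Under 17 alternatives, 394 of 425 log2 fold changes of the 25 named carriers that were tested kept their sign and their side of the threshold, 19 were no longer called, 4 became called and 8 changed sign. The log2(TPM + 1) and log2(TPM + 0.1) tests with limma called 1717 and 1713 genes against 5327, and 6 carriers higher against 10 under either, keeping 12 of the 19 calls. They lost Slc16a6, Slc19a1, Slc22a23, Slc27a4, Slc44a2, Slc5a6 and Slco2a1, and those TPM carry the unequal effective lengths of corticosterone replicates 1 and 2. Every count-based alternative kept 18 or 19 of the 19 calls, and the call lost was that of Slc27a4 each time (adjusted p = 0.0874 with DESeq2 and 0.0719 with no filter). Signs turned for Slc27a4 under both TPM tests (0.0232 and 0.0226), for Slc19a2 (0.0295 and 0.0283) and Slc16a1 (0.0764 and 0.0708) there too, and for Slc16a1 without corticosterone replicates 1 and 2 (0.0162), the cause of which was not tested. Scaling by library size alone moved the median of all genes to -0.04 and called Slc44a1 lower (adjusted p = 0.0205). Leaving out 1 library at a time gave 4753 to 5089 genes, 10 to 11 carriers higher and 8 to 10 lower. Slc29a1 then ran from -0.0429 to 0.000354, and Slc2a1 was called without corticosterone replicate 4 (adjusted p = 0.0398).

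Replicate numbers pair nothing here: correlations of same-numbered libraries ran from -0.0527 to 0.0302, and 0 of 4 corticosterone libraries correlated best with their own number. With the replicate block 4913 genes, 10 carriers higher and 8 lower were called, Slc27a4 being lost (adjusted p = 0.0606).

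Depth limits the 65 carriers below the filter and transcript shares of scarce genes. For Slc2a6, Slc2a2 and Slco2a1 the medium or corticosterone total was 32 to 57 counts. Reads shared between Slc22a5 and Slc22a21 and between overlapping genes cannot be told apart in these tables.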
